A study of Mus musculus with 4 samples.

Results

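A set of 10 genes that mark skeletal stem and progenitor cells was followed in sorted mouse periosteal cells without and with Sfrp4. They are Prrx1, Pdgfra, Pdgfrb, Ly6a, Cd34, Nes, Lepr, Acta2, Pi16 and Dpt. They were chosen by gene symbol, and all 10 were found among the 54532 genes of the count table. Sfrp4 encodes a secreted frizzled-related protein that binds Wnt ligands. The mutant mice were CtskCre;mTmG;Sfrp4-/- and the wild-type (WT) mice CtskCre;mTmG, so both groups carried the Ctsk-driven Cre and the mTmG reporter, which turns cells that have expressed Ctsk, and their descendants, GFP-positive. Ctsk is also the protease gene of osteoclasts, so the label is not specific to stem cells. Long-bone periosteum of mice aged 4 weeks was digested, and GFP+ CD200+ cells that lacked CD105, 6C3, Thy1.2, Ter119, CD31 and CD45 were sorted. Each genotype had 2 bulk RNA-seq libraries, each from the pooled cells of 3 mice, so the tests measure the spread between pools and not between animals. The study set out to learn what Sfrp4 does for the stemness and differentiation of these cells, and the markers bear on the first of these.

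The periosteum is the outer sheet of bone and holds mesenchymal progenitors that form bone and cartilage in growth and fracture repair. No single gene defines these cells: they are recognised by combinations of a limb mesenchyme transcription factor (Prrx1), PDGF receptors, surface proteins such as Sca-1 (Ly6a) and CD34, perivascular labels (Nes, Lepr, Acta2) and matrix or secreted proteins of fibroblast progenitors (Pi16, Dpt). Several of them also mark other cells: Cd34 and Ly6a are expressed by endothelium, and Acta2 and Pdgfrb by smooth muscle and pericytes.

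The libraries held 17119332 to 18750003 counts. In the Sfrp4-/- libraries Sfrp4 was at 11.4 and 12.1 CPM (counts scaled to library size with TMM factors), against 90.8 and 107 CPM in the WT libraries, a log2 fold change, Sfrp4-/- minus WT throughout, of -3.08 ± 0.31 (SE, n = 2 each) with an edgeR adjusted p of 0.377. Sfrp4 was called in 7 of 12 alternatives, among them DESeq2 (adjusted p = 2.58e-12) and edgeR without the filter on low counts (2.24e-10), and its adjusted p ranged up to 0.997 with library totals alone. Ctsk (1054 to 2050 CPM) and Cd200 (442 to 669 CPM) were abundant in all 4 libraries, while genes of the excluded surface proteins were low, Ptprc at 5.87 to 9.45 CPM, Pecam1 at 0.535 to 1.93 CPM, Eng at 0.291 to 2.80 CPM and Thy1 at 0 counts. Of the 7 genes of the sort, 5 were tested and 0 called. All 10 markers passed the filter on low counts, Pi16 only through the Sfrp4-/- libraries. None passed the test: 0 of 10 had an adjusted p under 0.05 in edgeR's quasi-likelihood test over 13737 genes, where the background was 0% (0 genes called). The smallest unadjusted p was that of Pi16 (0.0147, edgeR), the only 1 of 10 under 0.05, against 2.12% of all genes tested (1.41% higher and 0.706% lower in Sfrp4-/- libraries). DESeq2 and limma-voom also called 0 of the 10, and their calls over all genes were 7 (0.0322% of 21751) and 0. Without the filter on low counts edgeR called 0 of the 10 and 20 of 21751 genes (0.0919%). In bulk libraries fewer cells of a type and less RNA per cell cannot be told apart, which holds for every level given here.

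Acta2 encodes smooth muscle alpha-actin, a label of periosteal osteoprogenitors and of contractile cells, and had the highest level per gene length of the 10 in 3 of the 4 libraries; in WT replicate 1 Pdgfra was higher, at 21.6 TPM. Its level was 44.8 and 66.5 TPM (a share of transcripts, corrected for gene length) in the Sfrp4-/- libraries, against 19.8 and 40.6 TPM in the WT libraries. Acta2 (ENSMUSG00000035783) lies at 34241090 to 34255336 on the minus strand of chromosome 19. On the CPM scale it was at 27.3 and 39.4 in the Sfrp4-/- libraries and at 12.4 and 28.2 in the WT libraries, so the second WT library reached into the Sfrp4-/- range. Means of 33.3 ± 8.55 CPM in Sfrp4-/- and 20.3 ± 11.1 CPM in WT libraries (SD, n = 2 each) gave a log2 fold change of 0.71 ± 0.45 (SE, edgeR adjusted p = 1.00). The value was 0.25 without WT replicate 1 and 1.42 without WT replicate 2. The promoter of Acta2 is known for CArG boxes, the binding sequence of serum response factor, and is shown for a gene this abundant. The window is the 250 bases before the RefSeq start, minus strand of chr19:34255374-34255623 (GRCm38.p6), with CArG matches in capitals: CC, then 6 letters of which at least 5 are A or T, then GG.
Acta2: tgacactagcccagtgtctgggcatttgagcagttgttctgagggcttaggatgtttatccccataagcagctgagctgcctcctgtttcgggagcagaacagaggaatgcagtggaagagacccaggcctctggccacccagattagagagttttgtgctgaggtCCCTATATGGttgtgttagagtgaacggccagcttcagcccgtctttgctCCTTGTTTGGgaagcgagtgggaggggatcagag
The matches begin 84 and 34 bases before the start. Of the 9 windows found for 8 of the markers, only that of Acta2 held a match on either strand, and 8.59% of all 32851 windows did.

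Myosin, calponin and transgelin genes of differentiated smooth muscle were at or near 0 counts. Myh11 had 0 and 1 counts in the Sfrp4-/- libraries, against 0 and 0 counts in the WT libraries. Cnn1 had 2 and 5 counts in the Sfrp4-/- libraries and 4 and 0 counts in the WT libraries. Tagln had 0 and 0 counts in the Sfrp4-/- libraries and 1 and 0 counts in the WT libraries, but 67.9% of its exon bases lie in exons of genes on the other strand, from which these libraries cannot separate it. Myl9, a myosin light chain also made by fibroblasts, was at 36.3 and 54.1 CPM in the Sfrp4-/- libraries and at 19.2 and 36.5 CPM in the WT libraries. Further genes of the list were present in every library. Cspg4 was at 25.6 and 9.24 CPM in the Sfrp4-/- libraries and at 42.1 and 22.6 CPM in the WT libraries. Abcc9 was at 5.45 and 3.45 CPM in the Sfrp4-/- libraries and at 11.5 and 3.44 CPM in the WT libraries. Actg2 had 38 and 14 counts in the Sfrp4-/- libraries and 11 and 5 counts in the WT libraries. The 12 smooth muscle and pericyte markers, of which 8 were tested and 0 called in either direction, had a median log2 fold change of -0.66, against 0.0031 over all genes tested. Their summed level was 73.0 and 76.4 CPM in the Sfrp4-/- libraries and 95.2 and 68.4 CPM in the WT libraries. None of the 12 was at 0 in every library. The part of such cells in the level of Acta2 was not tested.

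Prrx1, the homeobox transcription factor of limb mesenchyme, had the log2 fold change nearest 0 of the 10 with all 4 libraries and TMM factors; with library totals alone it was 0.26 and that of Nes -0.037. It was at 68.8 and 77.8 CPM in the Sfrp4-/- libraries and at 75.2 and 70.1 CPM in the WT libraries. The 4 values interleaved, with means of 73.3 ± 6.36 CPM in Sfrp4-/- and 72.7 ± 3.64 CPM in WT libraries (SD, n = 2 each) and a log2 fold change of 0.013 ± 0.28 (SE, edgeR adjusted p = 1.00). Over the leave-one-out fits the value stayed between -0.068 and 0.10. Prrx1 (ENSMUSG00000026586) lies at 163245119 to 163313710 on the minus strand of chromosome 1 (mm10), which also carries Cd34 and Dpt. Its relative Prrx2 was at 27.3 and 31.6 CPM in the Sfrp4-/- libraries and at 25.7 and 25.8 CPM in the WT libraries.

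**Figure D1:**
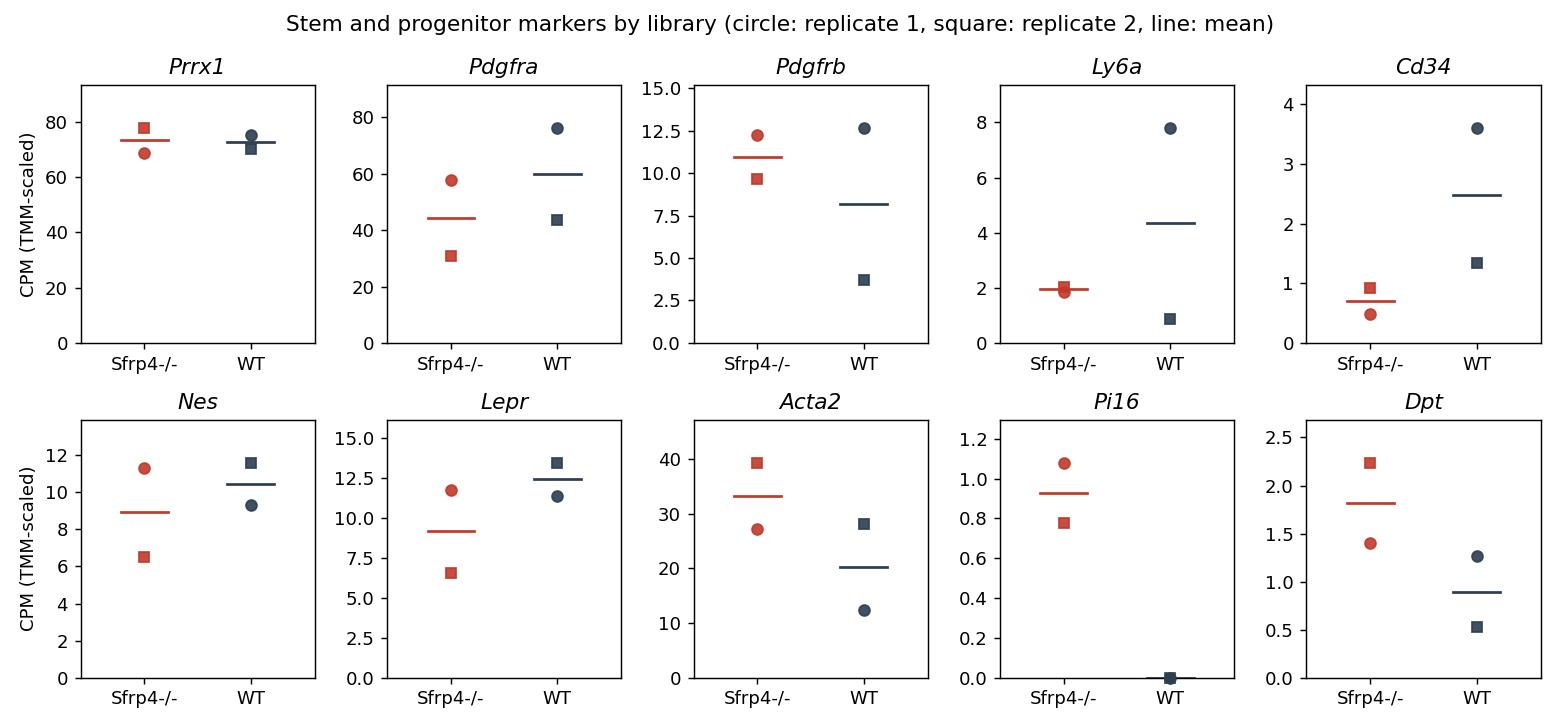
CPM of each of the 10 markers (vertical axes from 0, a scale of its own for each gene) in the 2 Sfrp4-/- libraries (left) and the 2 WT libraries (right); circles are replicate 1, squares replicate 2, lines the mean. Prrx1 lay between 68.8 and 77.8 CPM in all 4 libraries, Pi16 had counts in the Sfrp4-/- libraries alone, and the WT libraries were far apart for Ly6a (7.80 and 0.874 CPM) and Pdgfrb (12.7 and 3.73 CPM).

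The PDGF receptors differed in level and in how they varied. Pdgfra, the alpha receptor that with Sca-1 defines a mesenchymal progenitor fraction of mouse marrow, was at 57.7 and 30.9 CPM in the Sfrp4-/- libraries and at 76.2 and 43.4 CPM in the WT libraries. The genotypes overlapped. Pdgfra (ENSMUSG00000029231) lies at 75152292 to 75198215 on the plus strand of chromosome 5. The log2 fold change was -0.43 ± 0.43 (SE, n = 2 each, edgeR adjusted p = 1.00). It was 0.034 without WT replicate 1 and -0.79 without WT replicate 2, and -0.042 without Sfrp4-/- replicate 2 and -0.95 without Sfrp4-/- replicate 1. Pdgfrb, the beta receptor and a pericyte gene, was at 12.3 and 9.68 CPM in the Sfrp4-/- libraries and at 12.7 and 3.73 CPM in the WT libraries. Its log2 fold change of 0.42 ± 0.58 (edgeR adjusted p = 1.00) rested on the second WT library, being -0.21 without WT replicate 2 and 1.56 without WT replicate 1. Per length, Pdgfra exceeded Pdgfrb 2.57-fold and 1.74-fold in the Sfrp4-/- libraries and 3.29-fold and 6.36-fold in the WT libraries. This ratio needs no scaling between libraries. It was lower in both Sfrp4-/- libraries than in both WT libraries. With 2 against 2 a two-sided exact permutation test cannot go below 0.333 and so cannot call it. No other test of the ratio was run. The other marker ratios computed, Acta2 to Pdgfrb, Prrx1 to Acta2 and Pdgfra to Prrx1, overlapped between the genotypes. The 6.36-fold ratio of the second WT library rests on 64 counts of Pdgfrb. Exons of other genes take up 6.50% of the exon bases of Pdgfra, 2 of the 3 genes on the other strand, so that its count is uncertain to that extent.

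Genes around these receptors were looked at in the same test, where 0 of all 13737 genes passed (0%). Of the 10 PDGF and leptin pathway genes 9 were tested, 0 passed in either direction, and their median log2 fold change was 0.065 (all genes tested, 0.0031). Pdgfd, a ligand of the beta receptor, was at 116 and 85.3 CPM in the Sfrp4-/- libraries and at 132 and 172 CPM in the WT libraries (log2 fold change -0.59 ± 0.33, SE). Pdgfa, the main ligand of the alpha receptor, was at 137 and 100 CPM in the Sfrp4-/- libraries and at 128 and 99.3 CPM in the WT libraries. Its count is uncertain, because 26.1% of its exon bases lie in an exon of a gene on the other strand.

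Lepr, the leptin receptor and a label of marrow stromal cells, was at 11.8 and 6.57 CPM in the Sfrp4-/- libraries and at 11.4 and 13.5 CPM in the WT libraries. The first Sfrp4-/- library lay inside the WT range and the second below it (log2 fold change -0.44 ± 0.41, SE, n = 2 each, edgeR adjusted p = 1.00). The value was -0.069 without Sfrp4-/- replicate 2 and -0.92 without Sfrp4-/- replicate 1. Lepr (ENSMUSG00000057722) lies at 101717404 to 101815352 on the plus strand of chromosome 4. Its ligand gene Lep had 0 counts in all 4 libraries. Socs3, a feedback inhibitor of leptin and other cytokine receptors, was at 17.2 and 19.2 CPM in the Sfrp4-/- libraries and at 8.20 and 15.2 CPM in the WT libraries (log2 fold change 0.64 ± 0.39, SE, edgeR adjusted p = 1.00). Because Sfrp4 binds Wnt ligands, the promoter windows were searched for CTTTGA, the core of the sequence bound by TCF and LEF factors of the Wnt pathway, on both strands. A window of Lepr, chr4:101717157-101717406 (plus strand, GRCm38.p6), was the only 1 of the 9 with a match, on the opposite strand and in capitals here, 70 bases before the start.
Lepr: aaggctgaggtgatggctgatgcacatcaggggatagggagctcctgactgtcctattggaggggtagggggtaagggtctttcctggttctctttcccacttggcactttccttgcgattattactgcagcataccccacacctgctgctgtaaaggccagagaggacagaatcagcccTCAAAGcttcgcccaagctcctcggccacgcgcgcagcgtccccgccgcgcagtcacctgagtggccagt
Of all windows 13.8% held this match. It is a description of these letters only.

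Nes encodes nestin, an intermediate filament of neural stem cells that also labels perivascular cells of bone. It was at 11.3 and 6.52 CPM in the Sfrp4-/- libraries and at 9.34 and 11.6 CPM in the WT libraries, which overlapped (log2 fold change -0.23 ± 0.41, SE, n = 2 each, edgeR adjusted p = 1.00). Leaving out Sfrp4-/- replicate 2 turned it to 0.13, and leaving out Sfrp4-/- replicate 1 gave -0.68. Nes (ENSMUSG00000004891) lies at 87971078 to 87980451 on the plus strand of chromosome 3. In the same libraries Sox10, a transcription factor gene of glia, had 3 and 0 counts in Sfrp4-/- cells, and 0 counts in both WT libraries. Of the 6 Schwann and glial markers 3 were tested and 0 called in either direction, with a median log2 fold change of 0.94 and none at 0 in every library. Their summed level, mostly Pmp22, was 107 and 65.7 CPM in the Sfrp4-/- libraries and 106 and 98.2 CPM in the WT libraries. S100b, a calcium-binding protein gene of glia and cartilage, was at 5.24 and 2.63 CPM in the Sfrp4-/- libraries and at 1.67 and 0.758 CPM in the WT libraries (log2 fold change 1.70 ± 0.76, SE, edgeR adjusted p = 1.00). Mbp, a myelin gene, was at 4.54 and 5.16 CPM in the Sfrp4-/- libraries and at 3.20 and 1.87 CPM in the WT libraries. The part of such cells in the level of Nes was not tested.

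**Figure D2:**
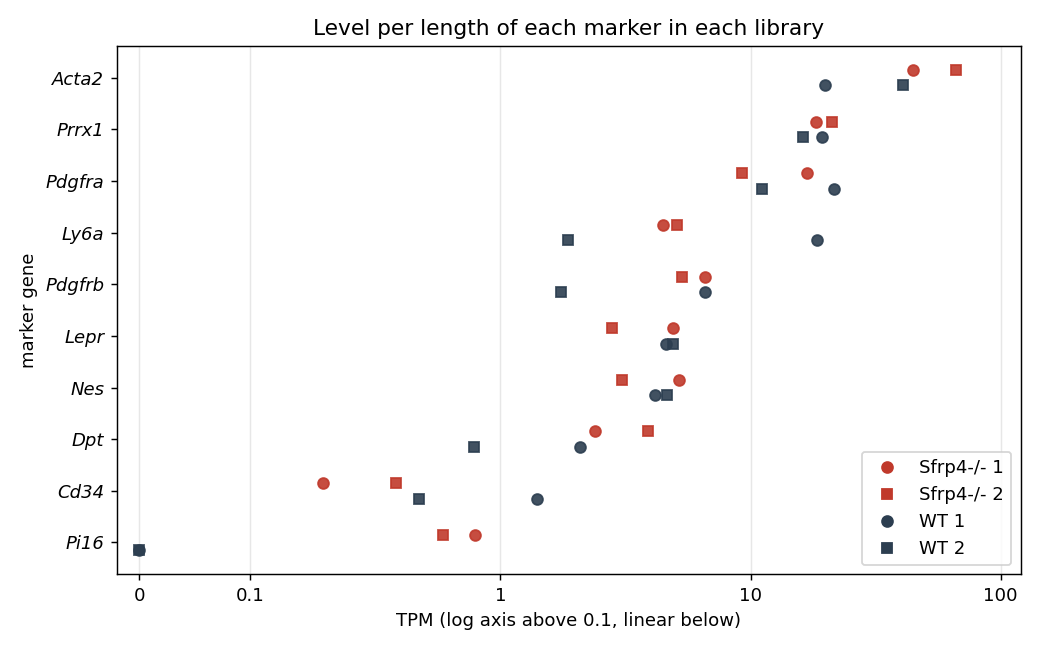
TPM of each marker (horizontal axis, log above 0.1 and linear below) in the Sfrp4-/- libraries (red, upper row of each gene) and the WT libraries (dark, lower row); circles are replicate 1, squares replicate 2. Acta2, Prrx1 and Pdgfra lay above 9 TPM in every library, and Cd34 and Pi16 at or below 1.40 TPM.

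Set in order of mean TPM, the Sfrp4-/- libraries ran Acta2 (55.6), Prrx1 (19.7), Pdgfra (13.1), Pdgfrb (5.93), Ly6a (4.78), Nes (4.11), Lepr (3.85), Dpt (3.14), Pi16 (0.690) and Cd34 (0.288). Of these neighbours, Ly6a and Nes, Nes and Lepr, and Lepr and Dpt had overlapping ranges. The WT libraries ran Acta2 (30.2), Prrx1 (17.8), Pdgfra (16.4), Ly6a (10.1), Lepr (4.75), Nes (4.39), Pdgfrb (4.16), Dpt (1.43), Cd34 (0.938) and Pi16 (0). There only Acta2 and Prrx1, and Cd34 and Pi16, were neighbours whose ranges did not overlap. With the length of the longest coding transcript in place of the deposited length, a setting added after the data were seen, Prrx1 (21.4 TPM) came before Acta2 (18.8 TPM) in the WT libraries, and Cd34 (1.90 TPM) before Dpt (1.02 TPM). In the Sfrp4-/- libraries that setting put Ly6a (4.31 TPM) before Pdgfrb (4.28 TPM), Lepr (3.50 TPM) before Nes (3.08 TPM) and Cd34 (0.587 TPM) before Pi16 (0.492 TPM). Among the genes tested, Acta2 lay at the 81.2 and 85.6 percentile of TPM in the Sfrp4-/- libraries and at the 69.2 and 80.8 percentile in the WT libraries. Cd34 lay at the 2.48 and 3.60 percentile in the Sfrp4-/- libraries and at the 19.9 and 10.5 percentile in the WT libraries. Summed over the 10 markers the level was 104 and 118 TPM in the Sfrp4-/- libraries, against 97.8 and 82.5 TPM in the WT libraries. On the CPM scale the sums overlapped, at 194 and 177 CPM in the Sfrp4-/- libraries and 210 and 173 CPM in the WT libraries. Without Acta2 the sums overlapped, at 59.5 and 51.6 TPM in the Sfrp4-/- libraries and 78.0 and 41.9 TPM in the WT libraries.

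**Figure D3:**
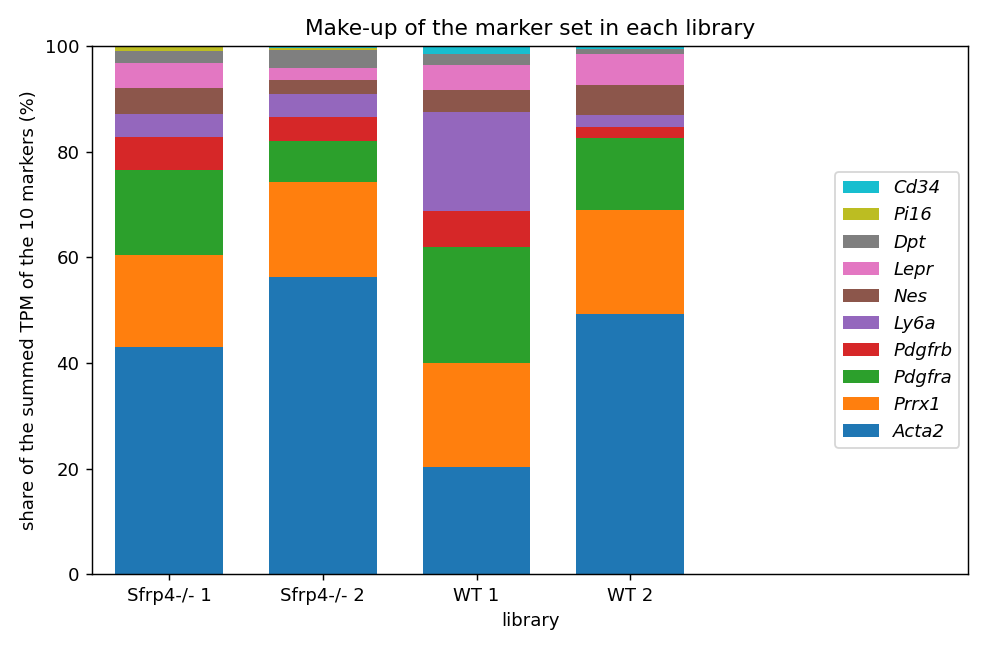
Share of each marker in the summed TPM of the 10 markers (vertical axis, percent) in each Sfrp4-/- library (left pair of bars) and each WT library (right pair). Acta2 made up 43.0% and 56.3% in the Sfrp4-/- libraries and 20.2% and 49.3% in the WT libraries; the first WT library differs from the others also by its 18.8% of Ly6a.

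Cd34, a sialomucin of blood progenitors, endothelium and fibroblasts, had the largest negative difference of the markers. Cd34 (ENSMUSG00000016494) lies at 194938819 to 194961279 on the plus strand of chromosome 1. Its counts were 9 and 19 in the Sfrp4-/- libraries, against 54 and 23 in the WT libraries. As CPM these were 0.486 and 0.924 in the Sfrp4-/- libraries and 3.60 and 1.34 in the WT libraries, so both Sfrp4-/- libraries lay below both WT libraries. This order was seen in 1 of the 10 markers and in 12.6% of all genes tested. The log2 fold change of -1.79 ± 0.95 (SE, n = 2 each) did not pass (edgeR adjusted p = 1.00) and was -0.92 without WT replicate 1. Counting error alone gives 11.4 to 29.7 counts around the 19 of the second Sfrp4-/- library (95% Poisson interval). Around the 23 of the second WT library it gives 14.6 to 34.5 counts, and these 2 intervals largely overlap. The interval around the 9 of the first Sfrp4-/- library, 4.12 to 17.1 counts, also overlaps that of the second WT library.

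Ly6a, the gene of Sca-1, a surface protein of stem cells, fibroblast progenitors and endothelium, depended on a single library. It was at 1.84 and 2.04 CPM in the Sfrp4-/- libraries and at 7.80 and 0.874 CPM in the WT libraries. Both Sfrp4-/- values lay between the 2 WT values. Ly6a (ENSMUSG00000075602) lies at 74994877 to 74998031 on the minus strand of chromosome 15. The log2 fold change was -1.15 ± 0.98 (SE, n = 2 each, edgeR adjusted p = 1.00), and without WT replicate 1 its sign turned, to 1.15. Of its transcripts' 50-base stretches, 19.0% also occur in transcripts of other genes, most often those of the family member Ly6c1, so its counts are uncertain. Ly6c1 itself was at 0.108 and 0.681 CPM in the Sfrp4-/- libraries and at 7.34 and 0 CPM in the WT libraries. For the other 9 markers this share was at most 4.93%.

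Endothelial markers were highest in the same WT library. Their summed level was 20.0 and 12.7 CPM in the Sfrp4-/- libraries and 58.9 and 8.51 CPM in the WT libraries. Of the 10 endothelial genes 9 had their highest level in WT replicate 1, and 7 had 0 counts in WT replicate 2, where Plvap, Pecam1 and Vwf had 117, 21 and 8 counts. The share of all genes with their highest level in WT replicate 1 was not counted. Cdh5, the endothelial cadherin, had 1 and 0 counts in the Sfrp4-/- libraries and 23 and 0 counts in the WT libraries. Emcn, an endothelial sialomucin, was at 0.216 and 0.535 CPM in the Sfrp4-/- libraries and at 4.27 and 0 CPM in the WT libraries. Plvap, of endothelial fenestrae, was at 13.9 and 8.07 CPM in the Sfrp4-/- libraries and at 33.3 and 6.82 CPM in the WT libraries. Of the 7 endothelial genes tested 0 passed in either direction, with a median log2 fold change of -1.08, and none of the 10 was at 0 in every library. WT replicate 1 was also the highest library for 7 of the 12 smooth muscle and pericyte markers and 6 of the 8 chondrocyte markers. It was the highest for 1 of the 10 leukocyte markers and 0 of the 8 erythroid markers. The pericyte gene Kcnj8 was at 0.432 and 3.07 CPM in the Sfrp4-/- libraries and at 9.74 and 2.68 CPM in the WT libraries. The part of endothelial cells in the levels of Cd34 and Ly6a was not tested.

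**Figure D4:**
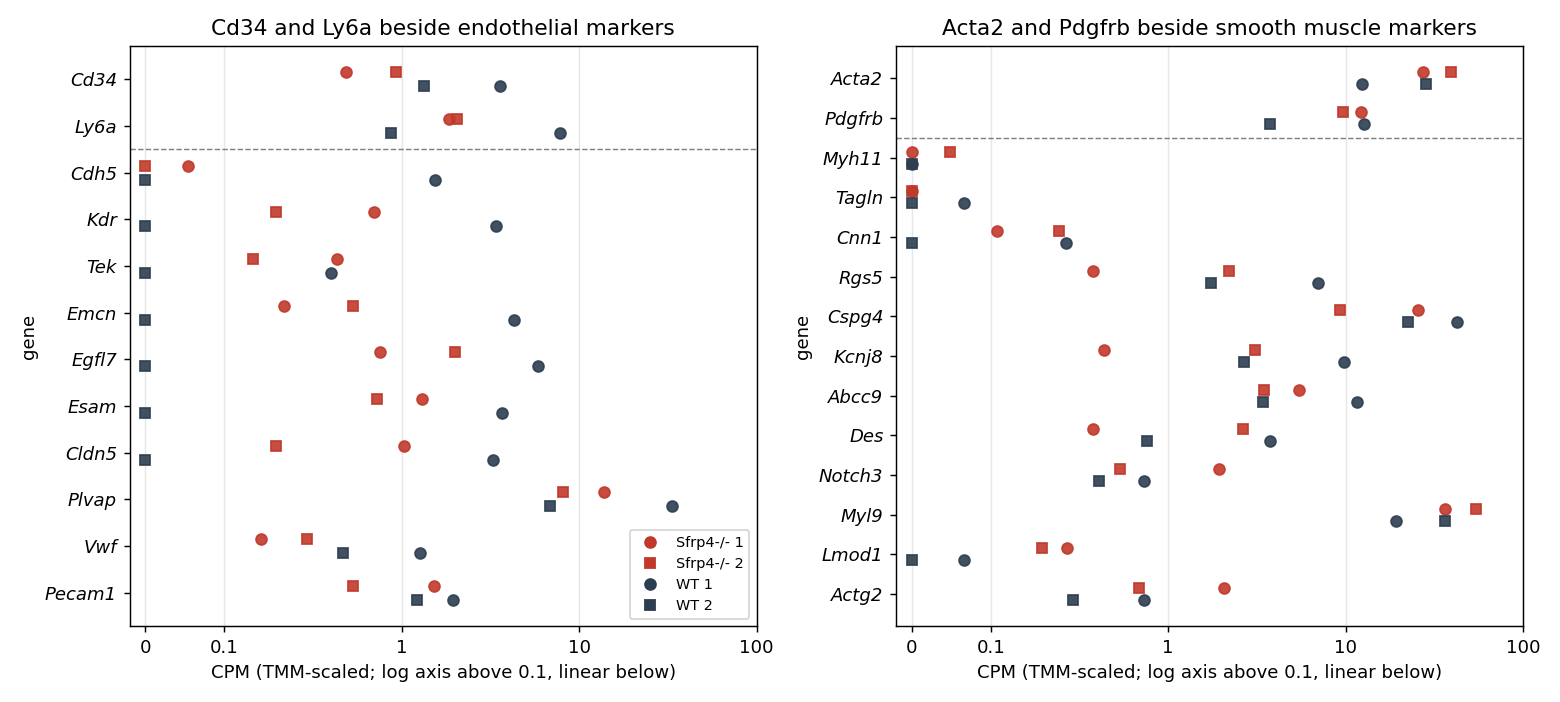
CPM (horizontal axes, log above 0.1 and linear below) of Cd34 and Ly6a above the dashed line with 10 endothelial markers (left panel), and of Acta2 and Pdgfrb with 12 smooth muscle and pericyte markers (right panel); red is Sfrp4-/- (upper row of each gene), dark is WT, circles are replicate 1 and squares replicate 2. WT replicate 1 held the highest value of 9 of the 10 endothelial markers. Myh11, Tagln and Cnn1 lay at or near 0 where Acta2 was at 12.4 to 39.4 CPM, while Cspg4 was at 9.24 to 42.1 CPM.

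Pi16 and Dpt, which mark fibroblast progenitors found in many mouse tissues, were the pair of markers with both Sfrp4-/- libraries above both WT libraries. This order was seen in 2 of the 10 markers and in 15% of all genes tested. Pi16 is counted among the 2 although it passed the filter on low counts only through the Sfrp4-/- libraries, which favours this order. Pi16, a peptidase inhibitor family member, had 20 and 16 counts in the Sfrp4-/- libraries and 0 and 0 counts in the WT libraries. That is 1.08 and 0.778 CPM in the Sfrp4-/- libraries, while 0 counts over the WT group allows up to 0.0933 CPM (3 counts over both libraries). Pooled over the libraries Pi16 was at 0.921 CPM in Sfrp4-/- cells, 9.87 times that limit, or 3.30 on the log2 scale. This ratio leaves out the counting error of the Sfrp4-/- counts and the spread between pools, so the difference could also be smaller. It did not pass the test (edgeR unadjusted p = 0.0147, adjusted p = 1.00), and its adjusted p over the alternatives ranged from 0.424 to 1.00. Pi16 (ENSMUSG00000024011) lies at 29318877 to 29329413 on the plus strand of chromosome 17. A gene on the other strand covers 3.49% of its exon bases. Its promoter window, chr17:29318632-29318881 (plus strand, GRCm38.p6), is shown because the gene had no WT count, and it held neither of the motifs searched.
Pi16: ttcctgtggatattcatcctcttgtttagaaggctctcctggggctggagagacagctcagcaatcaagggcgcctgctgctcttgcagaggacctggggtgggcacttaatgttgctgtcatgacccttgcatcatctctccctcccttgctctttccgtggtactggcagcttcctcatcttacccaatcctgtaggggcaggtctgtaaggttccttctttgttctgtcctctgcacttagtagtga

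Dpt encodes dermatopontin, a small matrix protein that binds decorin. Dpt (ENSMUSG00000026574) lies at 164796644 to 164824266 on the plus strand of chromosome 1. It had 26 and 46 counts in the Sfrp4-/- libraries and 19 and 9 counts in the WT libraries, or 1.40 and 2.24 CPM in the Sfrp4-/- libraries and 1.27 and 0.525 CPM in the WT libraries. The lowest Sfrp4-/- and the highest WT library were close, and the log2 fold change of 1.02 ± 0.95 (SE, n = 2 each) did not pass (edgeR adjusted p = 1.00). It was 0.51 without WT replicate 2, 0.66 without Sfrp4-/- replicate 2 and 1.79 without WT replicate 1. Other genes of this fibroblast progenitor type were set beside them. Of 16 such genes 13 were tested, 0 passed in either direction, 5 had a log2 fold change above 0 and 8 below it, and the median was -0.28. Both Sfrp4-/- libraries lay above both WT libraries in 0 of the 13 (15% of all genes). They lay below both in 3 of the 13 (23.1%, against 12.6% of all genes). Igfbp6, which binds insulin-like growth factors, was at 25.7 and 21.01 CPM in the Sfrp4-/- libraries and at 32.6 and 47.4 CPM in the WT libraries (log2 fold change -0.78 ± 0.33, SE, edgeR adjusted p = 1.00). Anxa3, an annexin, was at 26.0 and 30.7 CPM in the Sfrp4-/- libraries and at 38.3 and 54.3 CPM in the WT libraries (-0.71 ± 0.32, edgeR adjusted p = 1.00). Dpp4, often named with Pi16 in fibroblast progenitors, had 12 and 4 counts in the Sfrp4-/- libraries and 3 and 14 counts in the WT libraries. Clec3b had 1 count in all, and Creb5, named here after its values were seen, had 19 and 9 counts in the Sfrp4-/- libraries and 1 and 0 counts in the WT libraries and was not tested.

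**Figure D5:**
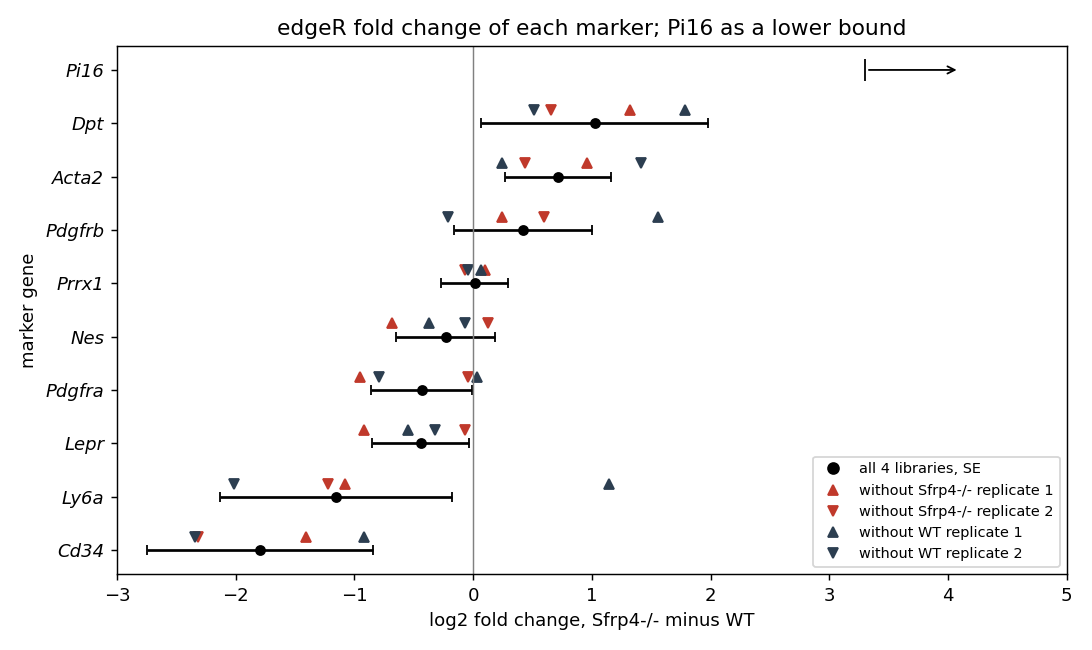
Log2 fold change of each marker, Sfrp4-/- minus WT (horizontal axis), with all 4 libraries (black, bars are SE) and without each library in turn (triangles). Pi16 had no WT count and is drawn at 3.30, its Sfrp4-/- level over the WT limit of 3 counts. The arrow drawn there as a lower bound leaves out the error of the Sfrp4-/- counts. Ly6a, Pdgfrb, Pdgfra, Nes and Prrx1 crossed 0 when a library was left out.

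The markers split evenly in sign, 5 of 10 above 0, where 50.4% of all genes tested were above 0. Their median log2 fold change was -0.11, also with Pi16 set to 3.30, against 0.0031 over all genes tested. Scaled by library totals alone the marker median turned to 0.11, where that of all genes was 0.24. It was also above 0 without Sfrp4-/- replicate 2 (0.042) and without WT replicate 1 (0.16), and -0.29 without Sfrp4-/- replicate 1. Further markers used for skeletal stem and progenitor cells were set beside the 10. Because 0 of all 13737 genes passed the test (0%), a count of 0 calls does not tell lists apart. Of 28 such genes 25 were tested, 0 passed in either direction, 12 were above 0 and 13 below 0, and the median was -0.097. In 4 of the 25 both Sfrp4-/- libraries lay above both WT libraries (16.0%, all genes 15%) and in 4 below both (16.0%, all genes 12.6%). Alcam, an adhesion molecule of mesenchymal progenitors, was at 3.35 and 2.53 CPM in the Sfrp4-/- libraries and at 14.3 and 9.33 CPM in the WT libraries (log2 fold change -2.01 ± 0.45, SE, edgeR adjusted p = 1.00). Angptl7, a secreted angiopoietin-like protein, was at 3.56 and 3.36 CPM in the Sfrp4-/- libraries and at 7.94 and 19.8 CPM in the WT libraries (edgeR unadjusted p = 0.00680, adjusted p = 1.00). Cxcl12, the chemokine of the marrow niche, was at 116 and 290 CPM in the Sfrp4-/- libraries and at 76.2 and 135 CPM in the WT libraries (0.94 ± 0.51). Gli1, which labels periosteal and growth plate progenitors, had 33 and 20 counts in the Sfrp4-/- libraries and 16 and 0 counts in the WT libraries. Grem1, a BMP antagonist of skeletal stem cells, had 13 and 22 counts in the Sfrp4-/- libraries and 0 and 18 counts in the WT libraries. The stem cell labels Axin2, Ngfr and Twist2 were too low to be tested.

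Marker genes of other cell types also varied in level between libraries. Which cells expressed them, the sorted cells themselves included, was not tested. Leukocyte genes summed to 724 and 804 CPM in the Sfrp4-/- libraries and to 558 and 633 CPM in the WT libraries. Of these genes 10 of 10 had a log2 fold change above 0 (50.4% of all genes tested), with a median of 0.28 and 0 called in either direction. Of these Cd79a, of B cells, had 0.77 ± 0.31 and Ltf, of neutrophils, 0.74 ± 0.36 (SE). Erythroid genes summed to 290 and 154 CPM in the Sfrp4-/- libraries and to 102 and 140 CPM in the WT libraries. All 8 of 8 were above 0 (50.4% of all genes tested), with a median of 1.46 and 0 called in either direction. Both Sfrp4-/- libraries lay above both WT libraries in 3 of the 8 (37.5%, all genes 15%). All 8 had their highest level in Sfrp4-/- replicate 1, a share that was not counted over all genes. Of these Epb42 had 3.03 ± 0.79 and Rhag 1.79 ± 0.49. Osteoblast and osteocyte genes summed to 80533 and 38881 CPM in the Sfrp4-/- libraries and to 126154 and 51986 CPM in the WT libraries. Most of each sum was Col1a1. The median was -0.25 over 8 genes, with Alpl at -0.91 ± 0.59 and Phex at -0.56 ± 0.43. Chondrocyte genes summed to 178 and 75.6 CPM in the Sfrp4-/- libraries and to 490 and 120 CPM in the WT libraries. Most of each sum was Col2a1. The median was -0.69 over 8 genes. Of these Sox6 had 1.26 ± 0.45, while Col10a1 was at 0.108 and 0.146 CPM in the Sfrp4-/- libraries and at 71.0 and 3.91 CPM in the WT libraries. Adipocyte genes had a median of 0.28 over 5 genes, with Lpl at 0.62 ± 0.31, Adipoq at 2.58 ± 1.67 and Plin1 at 0 counts. Skeletal muscle genes stayed at 3.62 to 6.32 CPM in sum, with a median of -0.57 over 3 genes and Myod1, Pax7 and Myf5 at 0 counts, Mylpf at 1.15 ± 0.76 and Des at -0.57 ± 1.17. None of these genes passed over all genes in edgeR's 4-library test; Col10a1 did with DESeq2 and without the filter on low counts. The part of other cells in the marker levels was not tested.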

How the data were processed

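Bulk mRNA libraries of sorted cells were made without strand information with a SMARTer low-input kit, per the labels' protocols. The deposited values are raw, whole-number counts for each gene, beside a gene length in bases. CASAVA, HISAT2 2.0.5, featureCounts 1.00-p3, DESeq2 1.20.0 and mm10 are named in the submitters' processing notes. What each did, how reads were counted and which annotation release served is not given in the sources used here. The deposited length equalled the union of GENCODE M21 exons for 98.0% of matched genes.

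Genotype and replicate number came from the sample titles. No pair of libraries agreed within counting noise (chi-square over its degrees of freedom, 51.7 to 229.6). The lowest values were those of same-numbered libraries of opposite genotype, 51.7 for replicate 1 and 61.1 for replicate 2. Between the 2 Sfrp4-/- libraries the value was 133, and between the 2 WT libraries 163. The test was edgeR 4.0.16 in R 4.3.3 with filterByExpr, TMM factors (0.989 and 1.19 in Sfrp4-/- libraries, 0.877 and 0.972 in WT libraries), a quasi-likelihood fit (glmQLFit, glmQLFTest) on genotype alone, and Benjamini-Hochberg adjustment over 13737 genes at 0.05. The test was also run on simulated counts, with results not given here. Each simulated library was drawn independently, so that run does not bear on variation shared by same-numbered libraries. A count was worth 0.0486 to 0.0667 CPM. SE is the absolute log2 fold change over the square root of F. TPM used the deposited length. Intervals and limits of 3 counts cover counting error only.

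The 10 markers, the 13 other lists and the tests were chosen with earlier results of these data known. Named genes were the markers, Sfrp4, the sort genes, and the 2 genes of each other list with the lowest p; further names illustrate a list or its lowest genes and were chosen after their values were seen. A planned protein comparison of paralogs was replaced by shared 50-base stretches of GENCODE M21 transcripts. Promoter windows are from RefSeq (GRCm38.p6); 8 of 10 markers matched, and Pdgfrb and Ly6a did not. Alternatives were RLE factors, library totals, no filter, a minimum of 5 CPM in 2 libraries, limma-voom 3.58.1, DESeq2 1.42.0, robust edgeR, the replicate block, leaving out each library and an adjusted p under 0.10. Figures used matplotlib 3.10.9.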

Additional observations from a re-analysis of the deposited data

How the results depend on the processing

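No marker passed under any alternative run, and the lowest adjusted p of a marker was 0.293, for Pdgfrb without WT replicate 1. The sign of a marker's fold change reversed 7 times, in 5 markers. Prrx1 was -0.0013 with DESeq2, and its leave-one-out values ran from -0.068 to 0.10. Pdgfra ran from -0.95 to 0.034, Pdgfrb from -0.21 to 1.56, Ly6a from -2.01 to 1.15 and Nes from -0.68 to 0.13 when a library was left out. Over all genes, 20 were called without the filter on low counts, 7 with DESeq2, 1 with the replicate number as a block and 2 to 7 without a library, against 0 in the 4-library edgeR test, where 291 had an unadjusted p under 0.05. In the other lists, 1 gene was called without the filter, 1 with DESeq2 and 0 to 1 without a library; it was Col10a1 each time. Pi16, Dpt, Cd34 and Ly6a have no value at a minimum of 5 CPM in 2 libraries. With library totals alone the median over all genes was 0.24 on the log2 scale, against 0.0031 with TMM, and over the markers 0.11, against -0.11. This scaling also placed Pdgfrb with Pi16 and Dpt as genes with both Sfrp4-/- libraries above both WT libraries. The summed TPM of the markers in Sfrp4-/- libraries was 90.7 with the longest coding transcript, against 111 with the deposited length. Same-numbered libraries deviated together (r = 0.322 over 13737 genes), but the labels state no shared batch, and the replicate block called 0 markers. Leaving out a library leaves 1 in its genotype, whose spread is then taken from the other genotype. Counts under 60 limit Cd34, Pi16 and Dpt.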
